A study of Mus musculus with 8 samples.

Results

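The genes that set how much pyruvate enters the mitochondrial pyruvate dehydrogenase reaction were followed across adipocytes with and without an shRNA named for PRDM16 and with and without rosiglitazone. All probe sets annotated to 8 genes were taken: the pyruvate dehydrogenase kinases Pdk1, Pdk2, Pdk3 and Pdk4, the pyruvate dehydrogenase phosphatases Pdp1 and Pdp2, and the mitochondrial pyruvate carrier subunits Mpc1 and Mpc2. The annotation paired 6 of 22690 probe sets with 5 of these genes, out of 12393 genes measured, and all 5 were among the 9294 genes tested. Pdp1, Pdp2 and Mpc2 were not analysed here. The results below are therefore about the 4 kinases and 1 carrier subunit, with Pdk1 read by 2 probe sets and each other gene by 1.

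The cells were adipocytes differentiated in culture from stromal-vascular (SV) cells, the non-adipocyte fraction of a fat depot, of inguinal white fat from male C57BL/6J mice. They expressed either a control hairpin (sh-scr) or one directed by name at PRDM16 (sh-PRDM16), a nuclear factor that promotes the brown fat programme, and were kept without an added agent or with 1 µM rosiglitazone, an agonist of the nuclear receptor PPARγ. This gave 4 groups of 2 arrays, called untreated or treated after rosiglitazone and sh-scr or sh-PRDM16 after the hairpin. The shRNA vector and its promoter, the number and age of the mice and the length of treatment were not found in the labels used here. Every group carried an shRNA, so cells without one were not compared. The labels call the arrays of a group biological replicates but name no separate culture or animal for them, and the p-values therefore measure only the spread among these arrays.

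Pyruvate made by glycolysis crosses the inner mitochondrial membrane through the carrier formed by Mpc1 and Mpc2. The pyruvate dehydrogenase complex then turns it into acetyl-CoA. The pyruvate dehydrogenase kinases phosphorylate the E1 subunit of the complex and switch it off, and the Pdp phosphatases switch it on again. Pdk4 is the kinase best known for rising in fasting, under fatty acids and under PPAR agonists, whereas Pdk1 is a known target of the hypoxia factor HIF-1.

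The promoters of the 3 members that were higher with rosiglitazone in both lines are shown because these genes moved together, and a reader can see in them what the searched letters look like. Each is the 250 bases before the annotated start, from RefSeq on GRCm38.p6, written 5′ to 3′ on the strand of the gene. Capitals mark a CCAAT box on either strand (CCAAT or ATTGG) and the E-box CACGTG. Pdk4 lies at chr6:5496279-5496528 on the minus strand, Pdk2 at chr11:95041372-95041621 on the minus strand, and Mpc1 at chr17:8283537-8283786 on the plus strand.
Pdk4: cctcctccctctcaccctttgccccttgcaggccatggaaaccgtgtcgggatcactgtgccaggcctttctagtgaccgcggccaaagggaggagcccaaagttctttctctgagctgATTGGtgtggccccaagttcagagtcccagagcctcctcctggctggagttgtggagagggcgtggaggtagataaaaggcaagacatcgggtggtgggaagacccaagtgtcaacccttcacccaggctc
Pdk2: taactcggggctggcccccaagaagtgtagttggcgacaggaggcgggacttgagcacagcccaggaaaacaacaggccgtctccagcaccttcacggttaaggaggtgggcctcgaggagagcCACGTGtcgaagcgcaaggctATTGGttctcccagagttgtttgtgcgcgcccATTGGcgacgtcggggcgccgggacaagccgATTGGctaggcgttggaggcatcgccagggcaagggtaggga
Mpc1: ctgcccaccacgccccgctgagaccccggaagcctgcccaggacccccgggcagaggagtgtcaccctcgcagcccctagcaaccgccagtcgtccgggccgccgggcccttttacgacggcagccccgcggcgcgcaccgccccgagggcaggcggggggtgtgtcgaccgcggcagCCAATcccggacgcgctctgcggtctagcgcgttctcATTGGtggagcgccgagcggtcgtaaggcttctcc
Pdk4 held 1 CCAAT box, with its first base 131 bases before the start. Pdk2 held 3, at 105, 73 and 42 bases, and the E-box at 126 bases. Mpc1 held 2, at 72 and 35 bases. GC content was 58.8% for Pdk4, 62.4% for Pdk2 and 73.6% for Mpc1.

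Of the 8 listed genes, 7 had an entry in the promoter table, and Pdp1 did not match. A CCAAT box was found in 6 of these 7 windows, against 34.5% of 27025 promoter windows of the same length, and a GC box (GGGCGG, either strand) in 5, against 32.9%. The E-box CACGTG stood in 2, those of Pdk2 and Pdp2, against 6.05%. The exact letters of a PPAR element of the DR1 kind, a direct repeat of AGGTCA with 1 base of any kind between the copies, were in 0 of 7, against 0.037% of all windows. The single nuclear receptor site AGGTCA, which overlaps that element, was in 0 of 7, against 13.8%. The estrogen-related receptor element TCAAGGTCA, which also contains AGGTCA, was in 0 of 7 (0.366% of all), the FOXO site GTAAACA in 0 of 7 (3.09%) and the TATA box TATAAA in 0 of 7 (13%). All motifs were searched on both strands. These are matches of letters in a short window and describe neither binding nor its absence.

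Of the whole series, array medians ranged from 100.7 to 135.65 intensity units, a span of log2 0.43, or 0.38 after adding the pseudocount of 16, and replicate arrays correlated at r = 0.991 across probe sets, against at most 0.984 between groups. The median log2 change of all genes tested was -0.31 for rosiglitazone in sh-scr cells, 0.00 for rosiglitazone in sh-PRDM16 cells, -0.16 for sh-PRDM16 against sh-scr without the drug and 0.15 with it. Centring each array on its median moved the split of calls for rosiglitazone in sh-scr cells from 5.2% higher and 32.2% lower to 14.2% and 11.9%. Without the drug, the split of the shRNA comparison went from 1.99% higher and 15.5% lower to 8.8% and 12.6%. The drug comparison in sh-PRDM16 cells went from 10.1% and 3.31% to 14.5% and 9.87%, and the shRNA comparison with the drug from 10.6% and 4.62% to 12.3% in each direction. Member changes below are on the deposited scale unless said to be centred, and are to be read beside these medians. Prdm16 itself, the named target of the shRNA, was not analysed here, so the labels sh-scr and sh-PRDM16 could not be checked on it. The adipocyte genes Adipoq (adiponectin) and Fabp4 were measured in every group, with Adipoq means between 10480 and 14975.

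**Figure D1:**
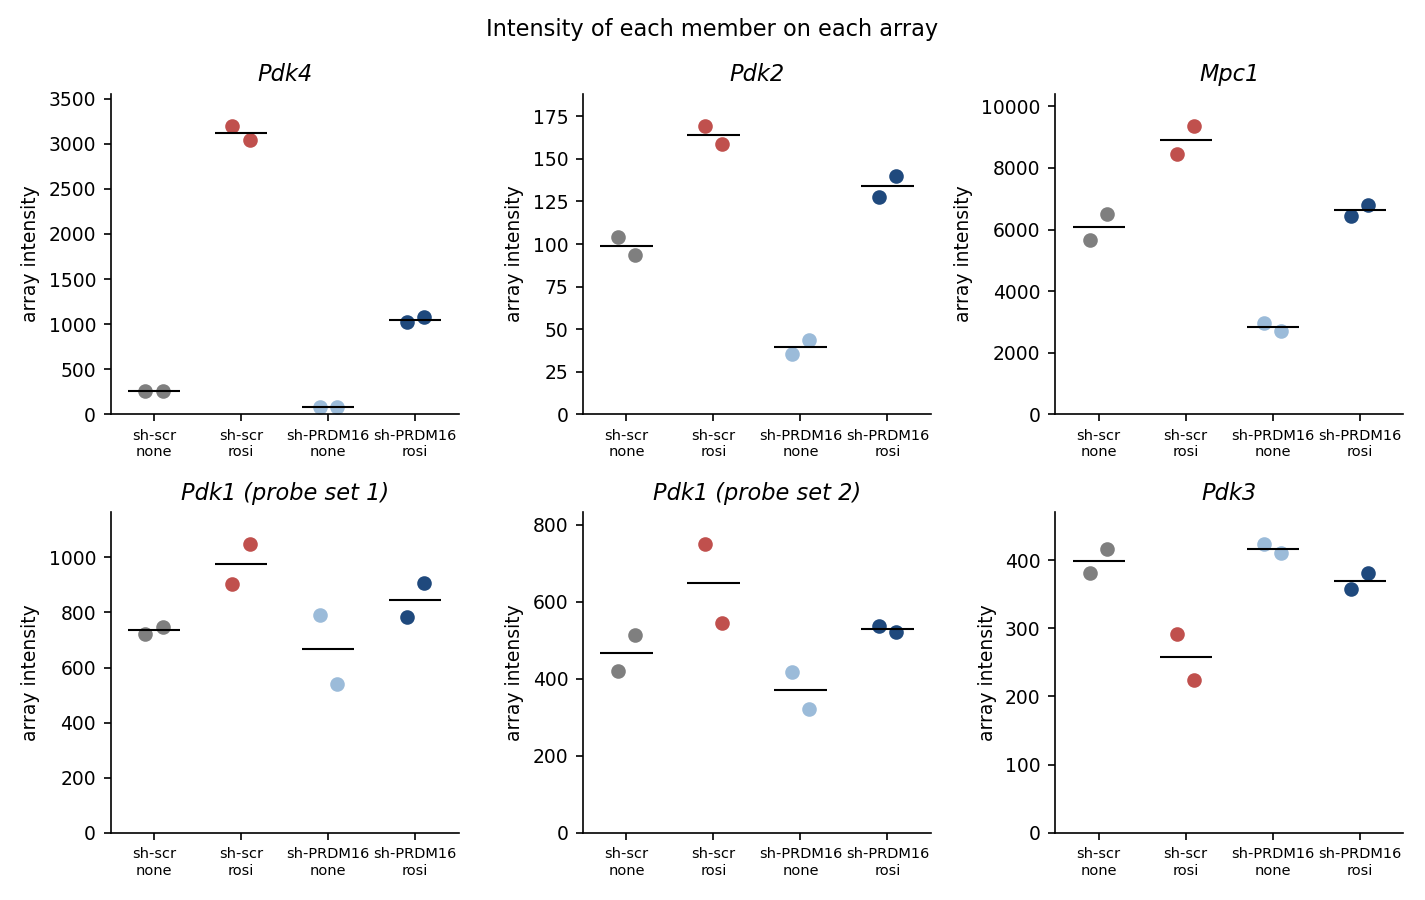
Intensity (linear axes from 0) of the 6 probe sets of Pdk1, Pdk2, Pdk3, Pdk4 and Mpc1 on each of the 8 arrays, one panel per probe set, with one point per array and a bar at each group mean; rosi is rosiglitazone, and probe set 1 of Pdk1 is the brighter one. The Pdk4 groups lie far apart, from 76.1 to 3201.5, whereas the Pdk1 groups lie close together.

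Pdk4, the kinase linked to fasting and fat oxidation, moved more than any other member in each rosiglitazone and each shRNA comparison. Its intensity was 258.3 and 260.1 on the untreated sh-scr arrays and 3201.5 and 3036.4 on the treated sh-scr arrays. On the sh-PRDM16 arrays it was 82.7 and 76.1 without rosiglitazone and 1019.7 and 1076.3 with it. No groups overlapped: both treated groups were above both untreated groups, and within each treatment the sh-PRDM16 arrays were the lower ones. The group means were 259.2 ± 1.27 for untreated sh-scr, 3119 ± 117 for treated sh-scr, 79.4 ± 4.67 for untreated sh-PRDM16 and, with the drug, 1048 ± 40.0 (SD, n = 2 each).

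Rosiglitazone raised Pdk4 12.0-fold on the linear means in sh-scr cells and 13.2-fold in sh-PRDM16 cells. On the log2(intensity + 16) scale the increases were 3.51 (SE 0.12, limma adjusted p = 9.106e-07) and 3.48 (SE 0.12, limma adjusted p = 5.675e-07), ranks 8 and 11 from the top of 9294 genes. The difference between these increases was -0.03 (SE 0.17, 95% interval -0.42 to 0.36, limma adjusted p = 0.9103). Its sign turned when the pseudocount was 1 (0.12) or when any of 3 single arrays was left out (up to 0.020), and the call was missed each time. The all-gene median of the same difference was 0.33, and with arrays centred on their medians the Pdk4 difference was -0.34 (limma adjusted p = 0.244).

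On the deposited scale, the sh-PRDM16 cells held less Pdk4 RNA signal by nearly the same factor in both states. Untreated sh-scr exceeded untreated sh-PRDM16 3.26-fold, and treated sh-scr exceeded treated sh-PRDM16 2.98-fold. In the fit Pdk4 fell by 1.53 without the drug (SE 0.12, limma adjusted p = 0.000112) and by 1.56 with it (SE 0.12, limma adjusted p = 0.000117), ranks 94 and 52 from the bottom. The all-gene medians of these comparisons were -0.16 and 0.15. With arrays centred the Pdk4 changes were -1.34 without the drug and -1.68 with it. Treated sh-PRDM16 cells nevertheless stood 4.04-fold above untreated sh-scr cells. The rosiglitazone and shRNA comparisons share arrays, so they are not independent of each other.

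Pdk2, the kinase present in most tissues, was dim on these arrays but followed the order of groups seen for Pdk4. Its intensity was 104.1 and 93.8 on untreated sh-scr, 169.6 and 158.7 on treated sh-scr, 35.5 and 43.7 on untreated sh-PRDM16 and 127.6 and 140.1 on treated sh-PRDM16 arrays. No groups overlapped, and the untreated sh-PRDM16 arrays stood well below the rest. The means were 98.95 ± 7.28, 164.15 ± 7.71, 39.6 ± 5.80 and 133.85 ± 8.84 in the same order of groups (SD, n = 2 each).

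Pdk2 rose with rosiglitazone by 0.65 in sh-scr cells (SE 0.14, limma adjusted p = 0.008869) and by 1.43 in sh-PRDM16 cells (SE 0.14, limma adjusted p = 0.000176), or 1.66-fold and 3.38-fold on the linear means. Without the drug it fell by 1.05 in sh-PRDM16 cells (SE 0.14, limma adjusted p = 0.001064). With the drug the shRNA difference was -0.27 (SE 0.14, 95% interval -0.57 to 0.04, limma adjusted p = 0.1979). The difference between the increases was 0.78 (SE 0.19, 95% interval 0.35 to 1.22), against an all-gene median of 0.33, and did not pass the adjusted threshold (limma adjusted p = 0.09462). With arrays centred it was 0.47 (limma adjusted p = 0.380). Without replicate 2 of untreated sh-scr, the call in sh-scr cells was lost (0.58, limma adjusted p = 0.0651).

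The order treated sh-scr, treated sh-PRDM16, untreated sh-scr, untreated sh-PRDM16, from high to low without overlap, was held by Pdk4 and Pdk2 and by 221 of all 9294 genes tested (2.38%). This count was made after the order of Pdk4 had been seen.

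Pdk1, the HIF-1-linked kinase, passed the test in no comparison under the main settings. Its brighter probe set read 721.4 and 748.2 on untreated sh-scr, 904.5 and 1048.3 on treated sh-scr, 790.9 and 540.4 on untreated sh-PRDM16 and 785.2 and 906.2 on treated sh-PRDM16 arrays. The treated sh-scr arrays were above the untreated sh-scr arrays, whereas the sh-PRDM16 groups overlapped because replicate 1 without the drug was slightly above replicate 1 with it. The second probe set read 419.4 and 514.0, 750.1 and 545.4, 418.2 and 322.4, and 536.3 and 521.7 on the same groups.

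For the brighter probe set the change with rosiglitazone was 0.40 in sh-scr cells (SE 0.18, limma adjusted p = 0.1125) and 0.36 in sh-PRDM16 cells (SE 0.18, limma adjusted p = 0.2502). The second probe set, from a fit over all probe sets, gave 0.45 and 0.51 (limma adjusted p = 0.107 and 0.1469), the same direction. The shRNA differences were -0.16 without the drug (limma adjusted p = 0.602) and -0.20 with it (limma adjusted p = 0.4635), and the former turned to 0.021 when arrays were centred on their medians. Centring also brought the change in sh-scr cells past the threshold (0.69, limma adjusted p = 0.0169). That change passed in 7 of 17 alternatives of the processing. Among them was leaving out either untreated sh-PRDM16 array, where the change stayed at 0.40 and only the shared estimate of spread differed. Leaving out replicate 1 of untreated sh-PRDM16 also brought the change in sh-PRDM16 cells past it (0.63, limma adjusted p = 0.0486).

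Pdk3 was the member with the opposite direction. Its intensity was 381.6 and 416.1 on untreated sh-scr, 291.3 and 224.7 on treated sh-scr, 423.6 and 409.8 on untreated sh-PRDM16 and 357.1 and 381.8 on treated sh-PRDM16 arrays. The treated sh-scr arrays were the lowest and overlapped with no other group, while the treated sh-PRDM16 arrays reached just into the range of the untreated sh-scr arrays. The means were 398.85 ± 24.4, 258 ± 47.1, 416.7 ± 9.76 and 369.45 ± 17.5 (SD, n = 2 each).

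With rosiglitazone, Pdk3 fell by 0.61 in sh-scr cells (SE 0.15, limma adjusted p = 0.01464), against an all-gene median of -0.31. Centred on the array medians, the value was -0.32 and missed the threshold (limma adjusted p = 0.0744). It also missed the threshold without replicate 2 of untreated sh-scr (-0.55, limma adjusted p = 0.0872) or of treated sh-scr (-0.43, limma adjusted p = 0.121). In sh-PRDM16 cells the change was -0.17 (SE 0.15, limma adjusted p = 0.5288). The difference between the lines with rosiglitazone was 0.50 (SE 0.15, limma adjusted p = 0.05003), just outside the threshold, and it passed when arrays were centred (0.38, limma adjusted p = 0.0464) and without replicate 1 of treated sh-scr (0.68, limma adjusted p = 0.0392). Without the drug it was 0.06 (limma adjusted p = 0.8189).

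Mpc1, the carrier subunit that lets pyruvate into the mitochondrion, was bright and followed nearly the same order of groups. It read 5658.7 and 6488.6 on untreated sh-scr, 8453.0 and 9375.6 on treated sh-scr, 2959.5 and 2704.4 on untreated sh-PRDM16 and 6446.1 and 6798.2 on treated sh-PRDM16 arrays. The treated sh-scr arrays were the highest and the untreated sh-PRDM16 arrays the lowest, and the remaining pair of groups overlapped. The means were 6074 ± 587, 8914 ± 652, 2832 ± 180 and 6622 ± 249 (SD, n = 2 each), so treated sh-PRDM16 cells stood at 1.09 times the untreated sh-scr level.

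Mpc1 rose with rosiglitazone by 0.55 in sh-scr cells (SE 0.14, limma adjusted p = 0.01492) and by 1.22 in sh-PRDM16 cells (SE 0.14, limma adjusted p = 0.000413), and without the drug it fell by 1.09 in sh-PRDM16 cells (SE 0.14, limma adjusted p = 0.0008417). With the drug the shRNA difference was -0.43 (SE 0.14, limma adjusted p = 0.06292), and -0.55 with arrays centred, which passed (limma adjusted p = 0.0117). The difference between the increases was 0.67 (SE 0.19, 95% interval 0.24 to 1.10, limma adjusted p = 0.126), against an all-gene median of 0.33. With arrays centred it was 0.36 (limma adjusted p = 0.350). Without replicate 1 of untreated sh-scr (0.46, limma adjusted p = 0.106) or replicate 2 of treated sh-scr (0.48, limma adjusted p = 0.104), the call in sh-scr cells was lost.

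**Figure D2:**
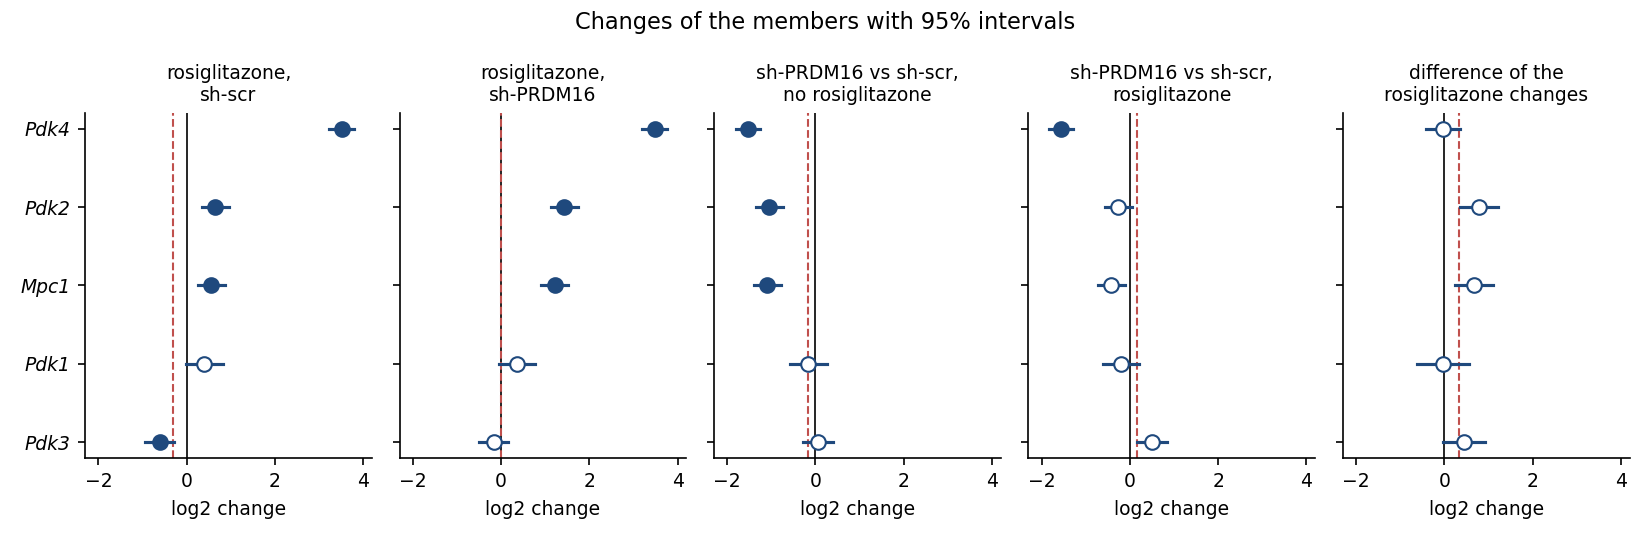
Log2 change of each member in the 5 comparisons, with 95% intervals from limma; filled points passed an adjusted p of 0.05 and the red dashed line is the median of all 9294 genes. Pdk4 stands apart at 3.51 and 3.48 with rosiglitazone and at -1.53 and -1.56 with the shRNA, while its difference between responses is -0.03.

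Counted over the members, rosiglitazone in sh-scr cells raised 3 of 5 (Pdk4, Pdk2 and Mpc1) and lowered 1 (Pdk3), where 37.4% of all genes tested were called, 5.2% higher and 32.2% lower. In sh-PRDM16 cells it raised the same 3 of 5 and the others did not pass, where 13.4% of all genes were called, 10.1% higher and 3.31% lower. The shRNA without the drug lowered 3 of 5, again Pdk4, Pdk2 and Mpc1, where 17.5% of all genes were called, 1.99% higher and 15.5% lower. With the drug it lowered 1 of 5, Pdk4, where 15.2% were called, 10.6% higher and 4.62% lower. The median member change was 0.55, 1.22, -1.05 and -0.27 in these comparisons, in the order given.

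The difference between the rosiglitazone responses was called for 0 of 5 members by limma, and for 0.667% of all genes, 0.603% with the larger increase in sh-PRDM16 cells and 0.0646% with the smaller. With arrays centred this split turned over, to 0.0108% and 0.043%. At an unadjusted p under 0.05 there were 2 members, Pdk2 and Mpc1, both with the larger increase in sh-PRDM16 cells, against 25.4% of all genes, 24.6% in that direction. The all-gene median of this difference was 0.33. Called higher in both rosiglitazone comparisons were 413 genes (4.44%), among them Pdk4, Pdk2 and Mpc1, and lower in both shRNA comparisons 374 (4.02%). Both conditions were met by 106 genes (1.14%), and Pdk4 was the only member among them.

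Markers of other cells moved with the groups. The 10 measured macrophage and leukocyte markers summed to between 10540 and 11651 on untreated sh-scr and 6856 to 7056 on treated sh-scr arrays, but to between 1421 and 1472 on untreated and 1064 to 1144 on treated sh-PRDM16 arrays. Of the 9 tested, 7 fell with the shRNA without the drug and 8 with it, where 15.5% and 4.62% of all genes were called lower. Lyz1 and Lyz2 carried most of the sum on untreated sh-scr arrays, with means of 5997 and 3228. Csf1r passed in neither state. The summed adipocyte markers ranged from 47509 to 48496 on untreated sh-scr, 41841 to 43984 on treated sh-scr, 30393 to 35014 on untreated sh-PRDM16 and 39556 to 41840 on treated sh-PRDM16 arrays, and 6 of 7 tested fell with the shRNA without the drug. Fabp4 and Adipoq carried most of the adipocyte sum, with untreated sh-scr means of 22265 and 14975. With rosiglitazone, 1 adipocyte marker rose (Lipe) and 2 fell (Lep and Retn) in each line. Most macrophage and adipocyte markers therefore fell beside Pdk4, Pdk2 and Mpc1 in untreated sh-PRDM16 cells.

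With rosiglitazone in sh-scr cells, 7 of 9 preadipocyte and fibroblast markers and 6 of 8 smooth muscle and pericyte markers fell. In sh-PRDM16 cells 2 and 4 did. Of all genes tested, 32.2% were called lower in sh-scr cells and 3.31% in sh-PRDM16 cells. With arrays centred, 5 preadipocyte and 4 smooth muscle markers fell in sh-scr cells, against 11.9% of all genes. In sh-PRDM16 cells 6 and 4 then fell, against 9.87%. The preadipocyte list summed to between 42401 and 43149 on untreated and between 29738 and 31260 on treated sh-scr arrays, and the smooth muscle list to between 29574 and 30613 and between 20605 and 21638. Of 11 skeletal and cardiac muscle markers, a tissue rich in Pdk4, only 4 passed the filter on low values. The sum of the 11 was lowest on the treated sh-scr arrays (935.3 and 1132) but was carried by Acta1 (mean 780.4 there), and their mean log2 value there (5.54 and 5.67) overlapped both sh-PRDM16 groups. The 8 endothelial markers summed to between 751.4 and 907.6 on untreated and 424.5 and 481.6 on treated sh-scr arrays. On the sh-PRDM16 arrays they summed to between 628.7 and 730.7 without and 425.4 and 472.4 with the drug. Of the 7 tested, 4 and 2 fell with rosiglitazone in the sh-scr and sh-PRDM16 lines, or 1 and 2 with arrays centred. The 3′ minus 5′ difference of beta-actin, a sign of RNA integrity, was 0.25 to 0.34 in all groups but treated sh-scr, where it was 0.38 and 0.49. That of Gapdh separated the treatments in both lines, at -0.44 to -0.40 on untreated and -0.35 to -0.33 on treated arrays. The part of cell make-up and RNA integrity in the member results was not tested, and in bulk RNA fewer cells of a type and less RNA per cell cannot be told apart.

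Subunits of the complex that the kinases act on were tested beside them. The E1 beta subunit Pdhb rose by 0.65 and 1.38 with rosiglitazone in sh-scr and sh-PRDM16 cells (limma adjusted p = 0.007913 and 0.0001865), from a mean of 5201 ± 264 to 8177 ± 128 and from 2645 ± 262 to 6899 ± 399 (SD, n = 2 each). The E2 core subunit Dlat rose by 0.81 and 1.27, and the E3 subunit Dld, shared with other ketoacid dehydrogenases, rose by 0.76 in sh-PRDM16 cells and changed by 0.37, not past the threshold, in sh-scr cells. The E1 alpha subunit Pdha1, which carries the sites that the kinases phosphorylate, changed by 0.11 and 0.44 and did not pass. The testis form Pdha2 was at the floor, with group means between 0.85 and 1.45, and was not tested.

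Of the 4 tested subunits, rosiglitazone thus raised 2 in sh-scr cells and 3 in sh-PRDM16 cells (median 0.51 and 1.01), or 4 and 4 with arrays centred. The shares of all genes called higher were 5.2% and 10.1%, or 14.2% and 14.5% with arrays centred. The shRNA without the drug lowered all 4: Dld by 1.00, Pdhb by 0.97, Dlat by 0.77 and Pdha1 by 0.54. With the drug it lowered only Dld, by 0.61, or all 4 with arrays centred. The shRNA lowered 15.5% of all genes without the drug and 4.62% with it, the latter 12.3% with arrays centred.

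**Figure D3:**
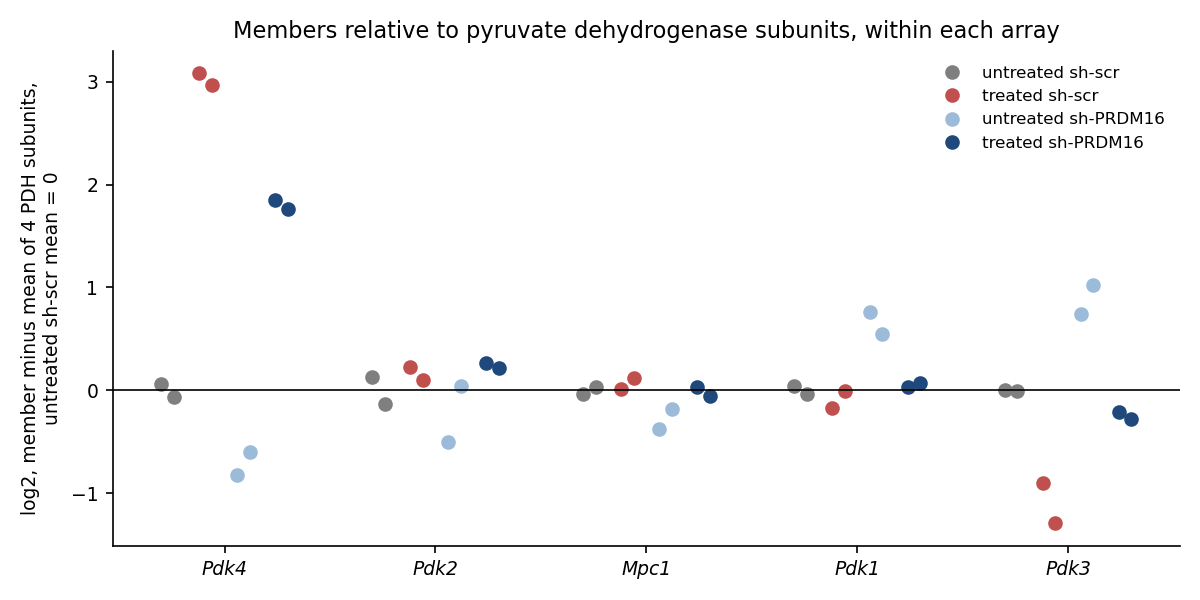
Each member minus the mean of the pyruvate dehydrogenase subunits Pdha1, Pdhb, Dlat and Dld on the same array (log2), set to 0 at the untreated sh-scr mean, with one point per array. Pdk4 lies at 2.96 and 3.08 on the treated sh-scr arrays and at 1.77 and 1.85 on the treated sh-PRDM16 arrays, while Pdk3 lies below its untreated arrays in both lines.

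Set against the complex on the same array, the members separated. A shift of the whole array touches this measure little for bright genes, but the pseudocount of 16 compresses dim ones. Pdk2 read only 35.5 and 43.7 on untreated sh-PRDM16 arrays, so its changes from that group are understated. This comparison was added after the values had been seen and is given with no test. Relative to the mean log2 value of the 4 subunits, Pdk4 was higher by 3.02 with rosiglitazone in sh-scr cells and by 2.52 in sh-PRDM16 cells. Its shRNA differences on this measure were -0.71 without the drug and -1.21 with it. Pdk2 differed by 0.16 and 0.47 with the drug, and Mpc1 by 0.07 and 0.26, against increases of 0.65 and 1.43 for Pdk2 and of 0.55 and 1.22 for Mpc1 on their own scale. Relative to the complex, Pdk3 differed by -1.09 and -1.13 with the drug, against -0.61 and -0.17 on its own scale. Its shRNA differences on this measure were 0.88 without the drug and 0.85 with it, against 0.06 and 0.50 on its own scale. Pdk1 differed by -0.09 in sh-scr and -0.60 in sh-PRDM16 cells with the drug, against 0.40 and 0.36 on its own scale.

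Among the genes that supply the complex with its lipoyl and thiamine cofactors, 6 were tested. Rosiglitazone raised 2 and lowered 1 in the sh-scr line, where 5.2% of all genes were called higher and 32.2% lower. It raised 2 in the sh-PRDM16 line, against 10.1% of all genes. Fdx1, a mitochondrial ferredoxin used in iron-sulfur and lipoyl synthesis, rose by 1.49 and 1.62. The lipoyltransferase Lipt1 rose by 0.76 in sh-scr cells, and the lipoyl synthase Lias rose by 0.70 in sh-PRDM16 cells. The thiamine carrier Slc19a2 fell by 0.44 in sh-scr cells. With arrays centred, 5 of 6 were called higher and 0 lower in sh-scr cells, against 14.2% and 11.9% of all genes. The list's median changes, 0.12 and 0.17, stand against all-gene medians of -0.31 and 0.00.

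The sister enzymes of the complex had 1 of 6 tested genes up in sh-scr and 3 in sh-PRDM16 cells with rosiglitazone. The shares of all genes called higher were 5.2% and 10.1%. Bckdhb, the E1 beta subunit of branched-chain ketoacid dehydrogenase, rose by 0.88 and 1.52. The oxoglutarate dehydrogenase subunits Dlst and Ogdh rose by 0.65 and 0.58 in sh-PRDM16 cells. Their list median was 0.32 and 0.48 with the drug and -0.65 and -0.34 with the shRNA, where 3 of 6 fell in each state. The shRNA lowered 15.5% of all genes without the drug and 4.62% with it.

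Of the genes that make or move pyruvate and lactate, 12 were tested, and 3 rose in each line with rosiglitazone. The shares of all genes called higher were 5.2% in sh-scr and 10.1% in sh-PRDM16 cells. With the shRNA 4 fell without the drug and 2 with it, where 15.5% and 4.62% of all genes fell. Slc16a1, the monocarboxylate carrier MCT1, rose by 0.60 and 0.98 in the sh-scr and sh-PRDM16 cells. The lactate dehydrogenase subunit Ldhb rose by 1.15 and the alanine aminotransferase Gpt by 0.96 in sh-PRDM16 cells, against 0.23 and 0.15, not past the threshold, in sh-scr cells. Their differences between the lines did not pass (limma adjusted p = 0.05361 and 0.06749). Bsg, the chaperone of the monocarboxylate carriers, rose by 0.42 in sh-scr cells. The list medians were 0.14 and 0.19 for rosiglitazone in the sh-scr and sh-PRDM16 lines, against all-gene medians of -0.31 and 0.00. For the shRNA they were -0.17 without and -0.10 with the drug, against -0.16 and 0.15. With arrays centred, 8 of 12 were called higher with rosiglitazone in sh-scr cells, against 14.2% of all genes.

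Of the genes on other routes of pyruvate and its product citrate, 7 of 9 tested rose with rosiglitazone in the sh-PRDM16 line (list median 0.65). In the sh-scr line 2 rose and 1 fell (median 0.07). The shares of all genes were 10.1% higher in the sh-PRDM16 line, and 5.2% higher and 32.2% lower in the sh-scr line. Malic enzyme Me1, a source of pyruvate and NADPH in fat cells, rose by 0.43 and 1.28. Pyruvate carboxylase Pcx, the other main fate of mitochondrial pyruvate, changed by 0.01 in sh-scr cells and rose by 0.96 in sh-PRDM16 cells, and it fell by 1.15 with the shRNA without the drug. Pck1, the glyceroneogenic PEPCK and a known PPARγ target, rose by 0.97 and 0.65, and its shRNA changes, -1.55 and -1.87, passed in both states. Citrate synthase Cs rose by 0.81 in sh-PRDM16 cells. The difference between the responses passed for 0 of 9 by limma, against 0.667% of all genes. At an unadjusted p under 0.05 there were 5, against 25.4% of all genes. With arrays centred, rosiglitazone in sh-scr cells raised 6 of 9 and lowered 0, against 14.2% and 11.9% of all genes.

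Pdk4 can be set beside a list of known PPAR targets, most of them fat oxidation genes. The list also holds genes of fatty acid uptake, binding and storage, such as Cd36, Fabp4 and Plin2, and Fabp4 is an adipocyte marker above as well. Of 16 tested, 12 rose with rosiglitazone in sh-scr cells and 14 in sh-PRDM16 cells (medians 0.82 and 1.41). The shares of all genes called higher were 5.2% and 10.1%. The peroxisomal enzyme Ehhadh rose by 2.89 and 2.91 and fell with the shRNA, with changes of -2.24 without and -2.21 with the drug. The fatty acid binding protein Fabp3 rose by 2.56 and 2.93, the acyl-CoA thioesterase Acot2 by 0.96 and 1.59, and the carnitine carrier Slc25a20 by 1.15 and 1.59. The shRNA lowered 12 of 16 without the drug, against 15.5% of all genes. With the drug it lowered 3 and raised 2, against 4.62% and 10.6% of all genes. With arrays centred it lowered 9 and raised 2 there, against 12.3% in each direction. None of the 16 changed by as much as Pdk4 with rosiglitazone on the log2(intensity + 16) scale.

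Pdk1 can be set beside HIF-1 targets, of which 5 of 14 tested rose in sh-scr cells and 2 in sh-PRDM16 cells (medians 0.30 and 0.04). Of all genes, 5.2% and 10.1% were called higher, with medians of -0.31 and 0.00. With arrays centred, 8 of 14 were called higher in sh-scr cells, against 14.2% of all genes. In sh-PRDM16 cells 2 were then higher and 2 lower, against 14.5% and 9.87%. Egln3, an oxygen-sensing prolyl hydroxylase, rose by 2.45 and 1.91, from 466 ± 88.0 to 2597 ± 124 and from 376 ± 101 to 1434 ± 131 (SD, n = 2 each). Bnip3 (mitophagy) rose by 0.55 and 0.58, and Ero1a and Higd1a rose by 0.49 and 0.46 in sh-scr cells. With the shRNA without the drug 0 of 14 passed by limma, against 1 at an unadjusted p under 0.05. With arrays centred 3 were called higher there, against 8.8% of all genes. With the drug the shRNA lowered 1, Egln3, by 0.85, against 4.62% of all genes. With arrays centred it lowered 4, against 12.3%.

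**Figure D4:**
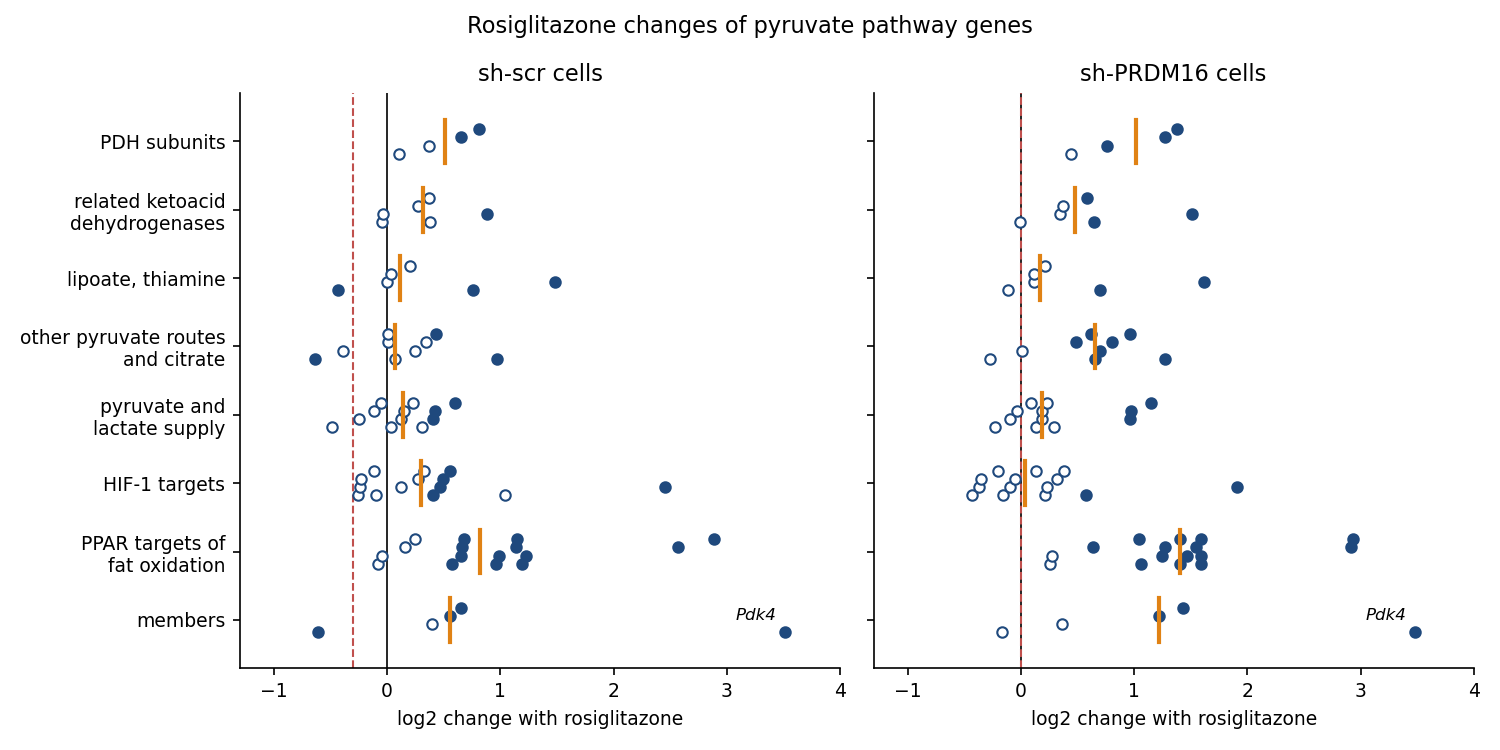
Log2 change of each tested gene of the pathway lists with rosiglitazone in each line, and of the 5 members in the bottom row, one point per gene, filled where the adjusted p was under 0.05; the orange tick is the list median and the red dashed line the median of all genes. The row of PPAR targets of fat oxidation also holds genes of fatty acid uptake, binding and storage. It has medians of 0.82 in sh-scr and 1.41 in sh-PRDM16 cells, and Pdk4 lies to the right of all its genes.

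Among factors known to act on the Pdk4 gene, 11 were tested. Of these, rosiglitazone raised 4 and lowered 2 in the sh-scr line and raised 4 in the sh-PRDM16 line. The shares of all genes were 5.2% higher and 32.2% lower in the sh-scr line, and 10.1% higher in the sh-PRDM16 line. The nuclear receptor Ppara rose by 2.05 and 1.75 in the same order, from a mean of 43.4 ± 14.1 to 227 ± 10.3 and from 13.1 ± 8.91 to 79.9 ± 3.39 (SD, n = 2 each), with shRNA changes of -1.04 and -1.34 without and with the drug, both past the threshold. Its values in untreated sh-PRDM16 cells are near the pseudocount of 16, which understates the change. The coactivator Ppargc1a rose by 1.46 and 1.25, and its shRNA changes, -1.27 and -1.47, passed as well. The related coactivator Ppargc1b rose by 1.84 and 2.08, with shRNA differences of -0.07 and 0.17 that did not pass. Esrra, an estrogen-related receptor that works with these coactivators, rose by 0.59 and 0.90.

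Pparg itself, the receptor for rosiglitazone, changed by -0.39 and 0.29 with the drug without passing, and fell by 0.99 with the shRNA without the drug (limma adjusted p = 0.001832). Its shRNA change with the drug, -0.30, did not pass. With arrays centred, its change with the drug in sh-PRDM16 cells (0.27, limma adjusted p = 0.0322) and its shRNA change with the drug (-0.43, limma adjusted p = 0.00844) passed. Its partner Rxra fell by 0.80 and the forkhead factor Foxo3 by 0.53 with rosiglitazone in sh-scr cells. With arrays centred only 1 of the 11 factors was called lower there, against 11.9% of all genes. Foxo1 fell by 0.80 and the glucocorticoid receptor Nr3c1 by 0.55 with the shRNA without the drug. Esrrg, with changes of 0.18 and 0.26 with rosiglitazone, and Cebpb, with 0.13 and 0.18, did not pass. Ppard was at the floor, with group means between 1.7 and 2.9, and was not tested.

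The genes whose pattern over the 8 arrays was most like that of Pdk4 were Cmbl, Acot13, Acacb, Fdx1 and Mtfp1. Their Pearson correlations with Pdk4 on the log2(intensity + 16) scale were 0.995, 0.995, 0.994, 0.994 and 0.993, and the gene at rank 10 had 0.989. The 8 arrays fall into 4 groups of 2 replicates, so these values describe a shared pattern and carry no p. Acacb, the acetyl-CoA carboxylase that makes malonyl-CoA at the mitochondrion, rose by 2.57 and 3.03 with rosiglitazone and fell with the shRNA, with changes of -1.67 without and -1.20 with the drug. Its intensity in untreated sh-PRDM16 cells was only 3.0 and 3.5, near the floor, so that 3.03 and -1.67 understate its changes. Cmbl, a hydrolase, rose by 2.52 and 2.87 and had shRNA changes of -1.23 and -0.88. Mtfp1, a mitochondrial fission protein, rose by 1.34 and 1.60, and Acot13, an acyl-CoA thioesterase, by 1.12 and 1.03. Fdx1, described above among the cofactor genes, was on the lipoyl list as well. None of these 5 changed by as much as Pdk4 with rosiglitazone on the log2(intensity + 16) scale, although on linear means Acacb, from a value near the floor, went from 3.25 to 141.65 in sh-PRDM16 cells.

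**Figure D5:**
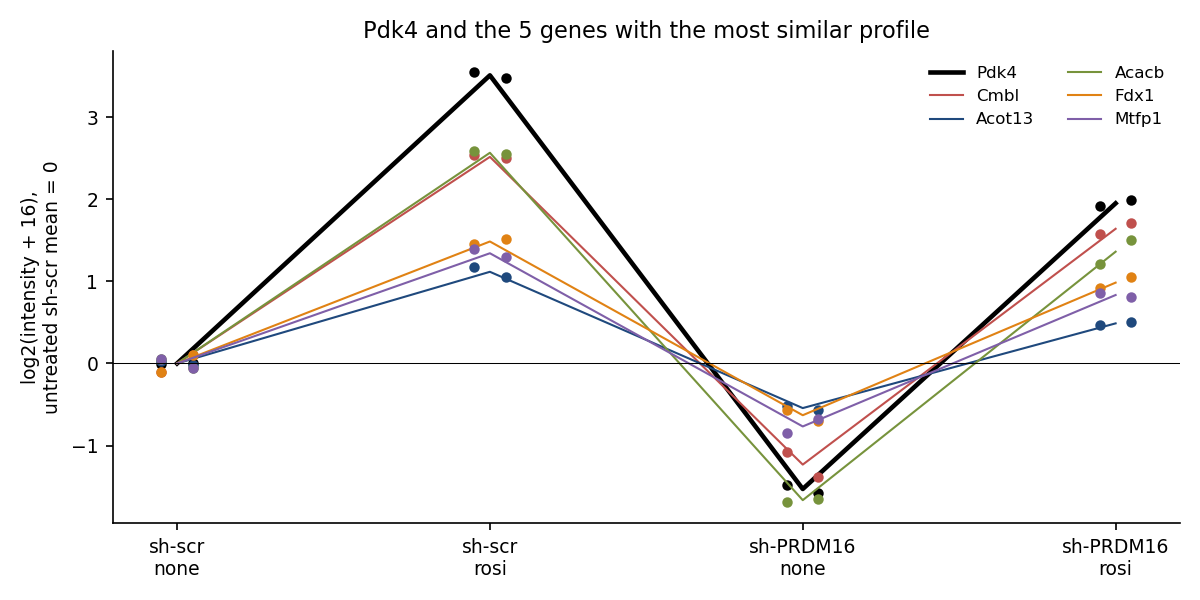
Log2(intensity + 16) of Pdk4 and of the 5 genes most like it, minus the untreated sh-scr mean, on each of the 8 arrays; points are arrays and lines join the group means, and rosi is rosiglitazone. All 6 genes have the same order of groups in their means, and on this scale, which compresses the low Acacb values, Pdk4 spans the widest range, up to 3.55 on replicate 1 of treated sh-scr.

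The same measure, given for Pdk1 and Mpc1 after their values had been seen, gave other neighbours. The genes most like Pdk1 were Cd164 (r = 0.986), Ung (0.958), Ndrg1 (0.946), Syap1 (0.944) and Higd1a (0.941), and Ndrg1 and Higd1a are on the HIF-1 list. Those most like Mpc1 were Ppdpf (0.998), Gpd1 (0.998), Ndufv3 (0.997), Aldh1a7 (0.996) and Decr1 (0.995), with Gpd1 a glycerol phosphate dehydrogenase and Ndufv3 a subunit of respiratory complex I. The same 8 arrays lie behind each value. Correlations over 0.95 were common for most members, with 282 genes for Mpc1, 207 for Pdk3, 170 for Pdk2 and 162 for Pdk4. For Pdk1 only 2 genes were over 0.95.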

How the data were processed

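RNA was read on 8 Affymetrix mouse arrays. Per the labels' protocols, Trizol RNA was copied from an oligo-dT primer into biotin-labelled cRNA. The authors deposited linear intensity values for 22690 probe sets; the summarization software, any normalization and a genome build: not given in the sources used here. Groups came from the sample titles.

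Probe sets were named through the platform annotation (20380 with 1 gene, 691 with several, 1555 not listed, 64 controls). A gene was its probe set with the highest mean log2(intensity + 16), and the lower 25% of genes were left out, which left 9294 of 12393. A limma 3.58.1 fit (R 4.3.3) of group means over all arrays (4 residual degrees of freedom, prior 5.31) gave two-sided tests of the genes. Adjustment was by Benjamini-Hochberg over all genes, with a threshold of 0.05. The same kind of fit on 15285 probe sets with 1 gene each gave the second Pdk1 probe set, adjusted over those probe sets. Log2 changes understate those of dim genes. The number of arrays limits the precision: the median standard error was 0.15. The steps were tested on simulated data.

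The members and lists were chosen with earlier results of these data known. Named were all members, up to 4 genes per list with the largest change past the threshold in either rosiglitazone comparison, every pyruvate dehydrogenase subunit and Pdk4 factor, and the 5 genes most like Pdk4. Alternatives were scaling, filters, pseudocounts, probe set averaging, the prior, a replicate block and leaving out arrays. Promoters came from RefSeq (GRCm38.p6).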

Additional observations from a re-analysis of the deposited data

How the results depend on the processing

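The 25 log2 changes (5 genes in 5 comparisons) were recomputed under up to 17 alternatives each; of 420 values, 380 kept direction and side of the threshold, 22 newly passed, 7 no longer passed and 11 changed sign. In both rosiglitazone and both shRNA comparisons, Pdk4 kept its call under all 17. Called members in the difference between the rosiglitazone responses numbered 1 (Mpc1) in place of 0 under some settings. These were the lower 50% of genes left out, pseudocount 64 and a trended variance prior. Many more of all genes were then also called with the larger increase in sh-PRDM16 cells. They numbered 1025 of 6196, 772 of 9294 and 1272 of 9294, in that order, against 56 of 9294 under the main settings. For the shRNA with rosiglitazone, called members numbered 3 with median-centred arrays and 2 with quantile normalization, in place of 1. They numbered 3 with each of the lower 50% left out, pseudocount 64 and the trended prior. Of all 9294 genes, 981 were called higher and 429 lower under the main settings. These became 1146 and 1141 with centred arrays and 1163 and 1164 with quantile normalization. With pseudocount 64 they were 1765 and 644, and with the trended prior 1950 and 659. With the lower 50% left out they were 1630 and 478 of 6196. With each array left out in turn, changes with rosiglitazone in sh-scr cells ran from 3.47 to 3.55 for Pdk4 and from 0.58 to 0.71 for Pdk2. Those of Mpc1 ran from 0.46 to 0.65, of Pdk1 from 0.29 to 0.50 and of Pdk3 from -0.78 to -0.43. For the shRNA with rosiglitazone, Pdk4 ran from -1.60 to -1.52, Mpc1 from -0.50 to -0.35 and Pdk3 from 0.33 to 0.68. Calls lost or gained in such fits are given with the genes above. Of the values that changed sign, the Pdk4 difference between responses was 0.12 with pseudocount 1 and ran from -0.080 to 0.020 with each array left out. The Pdk1 difference between responses was 0.0095 with the mean of its probe sets and ran from -0.31 to 0.23 with each array left out. The Pdk1 shRNA difference without the drug was 0.021 with centred arrays, 0.051 with quantile normalization and ran from -0.43 to 0.10 with each array left out. The cause was not tested. A fit with an array left out assumes that the lone array of its group varies like the others. With the replicate number as a block, the counts of called members were 4, 3, 3, 1 and 0, as without it. Tested as 6 probe sets among 15285, the counts were also 4, 3, 3, 1 and 0. The shares of all probe sets called were 29.4%, 9.75%, 12.2%, 10.3% and 0.157%, in the same order. Deviations of same-numbered arrays correlated between -0.024 and 0.028. These correlations cannot show whether same-numbered arrays shared a culture or animal, which the labels do not give. Pdk2 was not tested with the lower 50% of genes left out.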
